A study of Mus musculus with 4 samples.

Results

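The genes described here are 34 named genes of cholesterol synthesis and of the SREBP2 programme in mouse ileum, the distal small intestine, of which 32 had values among the 11489 genes analysed. They were taken by name from a list drawn up with earlier results of these data known: 18 enzymes that build cholesterol from acetyl-CoA, 9 enzymes of fatty acid and glycerolipid synthesis, 4 regulators of the SREBP transcription factors and 3 other genes that respond to sterols. Mvd of the first set and Lpin1 of the second were not analysed here, and all 32 others passed the filter on low values. Total RNA was sequenced from ileum of 8-week-old wild-type C57BL/6J mice. The vehicle group is labelled DMSO. The other group received 40 mg/kg pregnenolone-16α-carbonitrile (PCN), a synthetic steroid agonist of the mouse pregnane X receptor (PXR), in 3 intraperitoneal injections spaced 8 h apart, and tissue was taken 8 h after the last. Each group had 2 libraries. Whether each library came from a different animal is not in the labels, and p-values therefore reflect the spread of these samples alone, possibly a technical one. All values are FPKM (fragments scaled to transcript length and to the mapped fragments of a library) summed over the transcripts of a gene, a scale on which levels of different genes can be compared.

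Cells make cholesterol from acetyl-CoA through mevalonate, isoprenoid phosphates, squalene and lanosterol, and the small intestine is among the organs that make much of it. The genes of the pathway share a master switch. When sterols in the endoplasmic reticulum are scarce, the escort protein SCAP carries SREBP2, the product of Srebf2, to the Golgi, where it is cut into an active transcription factor. When sterols are plentiful, the INSIG proteins hold SCAP back. A sister factor, SREBP1, works mainly on the enzymes of fatty acid synthesis. SREBPs bind sterol regulatory elements (SREs) close to the start of their target genes and act there together with the factors NF-Y and Sp1.

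To show what the group shares in sequence, promoters from 250 bases before to 50 bases after the start site were taken from RefSeq (GRCm38.p6, the assembly that mm10 also denotes), which held 35 promoters for 28 of the 34 genes. NF-Y boxes (CCAAT) and Sp1 boxes (GGGCGG) were searched on both strands. A CCAAT box stood in 22 of the 35 promoters (62.9%) against 37.4% of 32851 mouse promoters, and in 14 of the 15 sterol enzyme genes with a promoter. A GGGCGG box stood in 25 promoters (71.4%) against 35.7%. The E-box CACGTG stood in 7 (20%) against 7.15%, where both promoters of Scap overlap at the same site. The SRE core TCACCCCAC stood in 1 promoter (2.86%) against 0.551% of all, that of Hmgcs1, and TCACNCCAC, which includes it, added no other. The shorter CACCCCAC, which lies within that core, also matched Acat2. A match is a description of letters and does not show a bound site. The Hmgcs1 and Acat2 matches are shown with the CCAAT boxes nearest to the start of 4 sterol enzyme genes, each with 20 bases on either side. Capitals mark the motif (ATTGG is CCAAT on the other strand):
Hmgcs1, SRE core, chr13:119690194-119690242, plus strand: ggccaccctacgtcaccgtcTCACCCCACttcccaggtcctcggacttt
Acat2, SRE inner part, chr17:12960879-12960926, minus strand: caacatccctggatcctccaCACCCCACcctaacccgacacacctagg
Idi1, NF-Y box, chr13:8885572-8885616, plus strand: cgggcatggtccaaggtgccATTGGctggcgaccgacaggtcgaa
Lss, NF-Y box, chr10:76531523-76531567, plus strand: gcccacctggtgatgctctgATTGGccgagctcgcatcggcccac
Cyp51, NF-Y box, chr5:4104702-4104746, minus strand: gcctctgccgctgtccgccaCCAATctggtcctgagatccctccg
Msmo1, NF-Y box, chr8:64733609-64733653, minus strand: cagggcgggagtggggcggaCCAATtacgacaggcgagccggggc

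The PXR target Cyp3a11 was far higher in both PCN libraries, and libraries also differed within groups. It was at 26.1 and 14.7 FPKM with vehicle and at 163 and 214 in PCN (log2 fold change 3.19, limma adjusted p = 0.0640). Nr1i2, which encodes PXR, was at 27.9 and 31.3 against 36.4 and 34.1. Read depth was unknown, so no counting intervals are given, and only transcripts whose larger group mean was above 1 FPKM were analysed. Markers of fat and muscle of the gut wall stood out in vehicle replicate 2. The 8 adipocyte markers analysed of 10 summed to 61.8 and 153 FPKM with vehicle and 48.4 and 67.3 in PCN, all 8 were highest in vehicle replicate 2, and none was listed at 0 (Adipoq, the fat hormone adiponectin, was at 1.47, 6.30, 0.397 and 1.31). The 10 smooth muscle markers summed to 400.2 and 809 in vehicle and 223 and 281 in PCN, with 9 of 10 lower in both PCN libraries than in both vehicle libraries. The 8 epithelium markers differed less, at 0.951, 0.949 and 0.868 times vehicle replicate 1 in vehicle replicate 2 and the PCN libraries. The 10 enterocyte markers were at 0.896, 0.746 and 0.714 times on the same measure, a sum carried by Fabp6, the ileal bile acid binding protein (8059 and 6757 FPKM against 4228 and 3652). Without it the other 9 were at 0.949, 0.948 and 0.953, a sum carried in turn by Apoa1 and Anpep. Of the 10, Fabp6 included, 5 were lower and 2 higher in PCN without overlap, against 19.1% and 21.1% of all genes. Sis was at 394 and 359 with vehicle and 297 and 241 in PCN, and Slc5a1 at 250 and 262 against 300 and 276. The 10 crypt proliferation markers were at 0.839, 0.897 and 0.968, and the 9 immune markers at 1.01, 1.05 and 1.13.

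None of the 32 genes passed the test. Cyp3a11 did not pass it either, so failing it does not show that a gene was unchanged. Of the 32 genes, 0 were called (limma on log2(FPKM + 1), Benjamini-Hochberg adjusted over 11103 genes, adjusted p under 0.05), and 0.0811% of all genes were called higher and 0.054% lower. At an unadjusted p under 0.05, 1 of the 32 genes was higher and 4 were lower in PCN, where 5.25% and 4.11% of all genes were. The 5 were Elovl6 on the higher side and Acly, Fasn, Scap and Fads2 on the lower, so none of them builds sterols. Both PCN libraries lay below both vehicle libraries in 9 of 32 genes (28.1%, against 19.1% of all genes), and above them in 2 (6.25%, against 21.1%). The median log2 fold change, PCN against vehicle, was -0.11 over the 32 genes and 0.0029 over all genes. It was -0.10 over the 17 sterol enzymes and -0.33 over the 8 fatty acid enzymes. With the smooth muscle marker score as a covariate these medians were -0.33 and -0.67, and leaving out 1 library put that of the fatty acid enzymes between -0.49 and -0.20. The score, the mean log2(FPKM + 1) of the markers, was 4.58 and 5.48 in vehicle and 3.74 and 4.04 in PCN. It thus separated the groups, and the covariate fit left 1 residual degree of freedom. The slope on the score came from the gaps within groups, the larger of them in vehicle. The median of the 32 was -0.014 without vehicle replicate 1 and -0.018 without PCN replicate 2. That of the sterol enzymes was 0.067 and 0.0038 in the same fits, so its sign rested on single libraries. In bulk tissue, fewer cells of a type and less RNA per cell cannot be told apart.

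**Figure D1:**
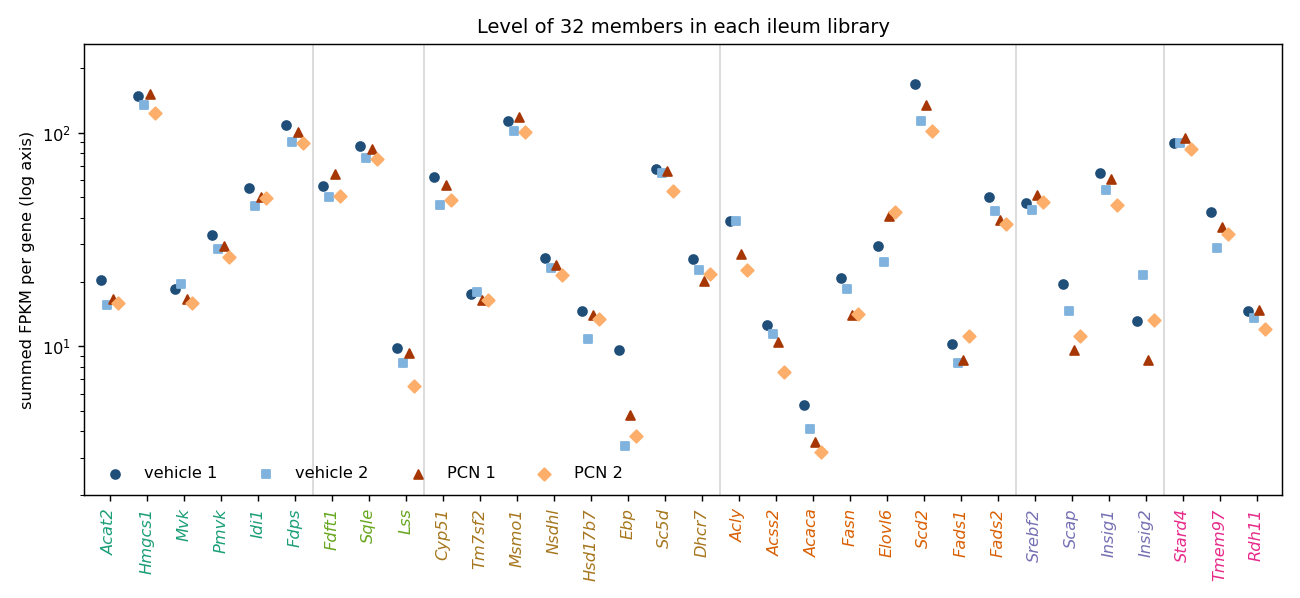
Level of each of the 32 genes, as summed FPKM on a log axis, with 1 point per library (vehicle replicates 1 and 2, PCN replicates 1 and 2). Genes stand in pathway order, and the colour of a name gives its role: mevalonate steps, squalene to lanosterol, late sterol steps, fatty acid enzymes, SREBP regulators and other sterol-responsive genes. Hmgcs1 was at 123 to 152 FPKM and Ebp at 3.40 to 9.62, while Elovl6 and Acly have groups that do not overlap.

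The early enzymes, which turn acetyl-CoA into isoprenoid phosphates, were all slightly lower on average in PCN, with log2 fold changes of -0.21 to -0.0084, and none passed the test. Hmgcs1, the cytosolic HMG-CoA synthase and the most abundant of the 32 genes, was at 148 and 135 FPKM with vehicle and at 152 and 123 in PCN. Its PCN libraries thus enclosed both vehicle libraries, and the log2 fold change was -0.043 ± 0.12 (SE, 95% interval -0.35 to 0.27, limma adjusted p = 0.943). Fdps, which makes farnesyl diphosphate, was at 108 and 90.1 in vehicle and at 101 and 89.7 in PCN (log2 fold change -0.052, 95% interval -0.36 to 0.25). Idi1, the isomerase of isopentenyl diphosphate, was at 54.8 and 45.3 against 49.7 and 49.3, a group difference of -0.0084 on the log2 scale. Acat2, which condenses acetyl-CoA in the cytosol and has a close relative beside it in the mouse genome that could share its reads, was at 20.3 and 15.5 against 16.7 and 16.01. In all 4 genes the groups overlapped. The kinases that act on mevalonate were the lowest of the early group together with Acat2. Mvk, mevalonate kinase, was at 18.4 and 19.5 in vehicle and 16.7 and 15.9 in PCN, without overlap (log2 fold change -0.21 ± 0.10, adjusted p = 0.598). Pmvk, phosphomevalonate kinase, was at 33.0 and 28.4 against 29.4 and 26.04, with overlap.

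Squalene synthase commits farnesyl diphosphate to sterols. Sqle, squalene epoxidase, a controlled step of the pathway, was at 86.4 and 75.9 FPKM with vehicle and 83.7 and 75.5 in PCN. The groups overlapped almost wholly, and the log2 fold change was -0.026 ± 0.10 (95% interval -0.28 to 0.23, adjusted p = 0.959). Fdft1, squalene synthase, was at 56.0 and 49.8 against 64.3 and 50.4 (log2 fold change 0.11, 95% interval -0.26 to 0.47). Lss, which closes the squalene epoxide to lanosterol, was at 9.76 and 8.35 against 9.31 and 6.51, so PCN replicate 2 alone stood low. Among the 3 genes the level was highest for Sqle and lowest for Lss in every library.

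The late enzymes trim lanosterol to cholesterol. Msmo1, the C4-methylsterol oxidase, was at 113 and 102 FPKM with vehicle and 119 and 101 in PCN (log2 fold change 0.025 ± 0.11, 95% interval -0.25 to 0.30, adjusted p = 0.963). Sc5d, a sterol desaturase, was at 67.4 and 64.6 against 66.2 and 53.5 (log2 fold change -0.15, limma adjusted p = 0.747). Cyp51, the lanosterol demethylase, was at 62.1 and 46.1 against 56.8 and 48.4. In each of these genes the groups overlapped. Dhcr7, which reduces 7-dehydrocholesterol in the final step, was at 25.6 and 22.6 in vehicle and at 20.2 and 21.7 in PCN, without overlap (log2 fold change -0.19 ± 0.11, adjusted p = 0.668). Tm7sf2, a sterol reductase, was at 17.6 and 17.9 against 16.4 and 16.5, also without overlap but with a log2 fold change of only -0.10. Nsdhl, a dehydrogenase of the C4 demethylation, was at 25.9 and 23.3 against 23.99 and 21.6, and Hsd17b7, the reductase that acts after it, at 14.5 and 10.8 against 14.1 and 13.4. Both overlapped. Ebp, the sterol isomerase, was the least reproducible of the 17, at 9.62 and 3.40 in vehicle and 4.78 and 3.81 in PCN. Vehicle replicate 1 alone set its group difference of -0.38, whose 95% interval ran from -1.49 to 0.74. Of the 17 sterol enzymes 16 had a log2 fold change under 0.25 in size (94.1%, against 72.3% of all genes), and 3 were lower and 0 higher in PCN without overlap (17.6% and 0%, against 19.1% and 21.1% of all genes).

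**Figure D2:**
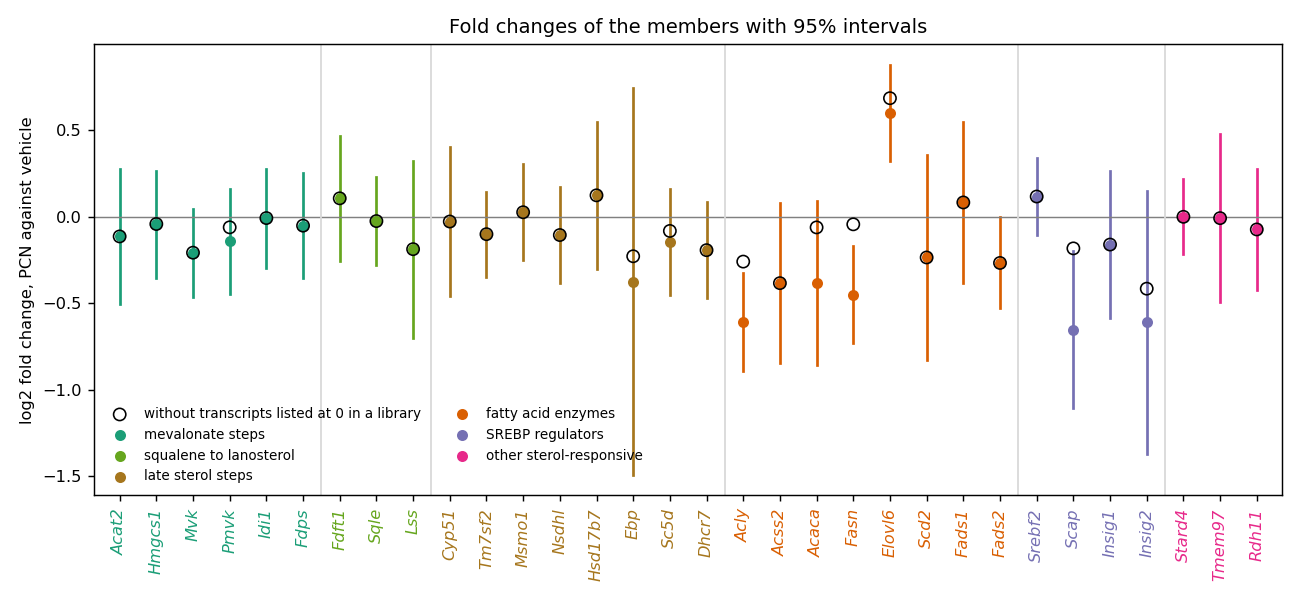
Log2 fold change of each gene, PCN against vehicle (filled points) with its 95% interval from limma, n = 2 libraries per group, coloured by role. Open circles give the value when transcripts listed at 0 in any library are left out of the gene sum: Scap then lies at -0.18, Fasn at -0.045 and Acaca at -0.062, and Elovl6 at 0.69.

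The fatty acid enzymes held the smallest p-values of the 32 genes, and the differences went both ways. Elovl6, the elongase that extends palmitate to stearate, was at 29.4 and 24.9 FPKM with vehicle and at 40.7 and 42.3 in PCN. Both PCN libraries were above both vehicle libraries by more than the gap within either group (log2 fold change 0.60 ± 0.11, SE, 95% interval 0.32 to 0.88, unadjusted p = 0.00272, limma adjusted p = 0.188). Acly, ATP citrate lyase, which supplies acetyl-CoA to both pathways, had the opposite pattern, at 38.5 and 38.4 in vehicle and 27.0 and 22.8 in PCN (log2 fold change -0.61 ± 0.11, unadjusted p = 0.00261, adjusted p = 0.187). Fasn, fatty acid synthase, was at 20.8 and 18.5 against 14.1 and 14.1 (log2 fold change -0.45 ± 0.11, adjusted p = 0.297). Acaca, acetyl-CoA carboxylase, which makes the malonyl-CoA that fatty acid synthase uses, was the least abundant of the 32 genes, at 5.32 and 4.11 against 3.54 and 3.18. Acss2, which makes acetyl-CoA from acetate, was at 12.6 and 11.4 against 10.5 and 7.57. The 3 genes were lower in both PCN libraries, as was Fads2, the delta-6 desaturase of polyunsaturated fatty acids, at 49.95 and 42.96 against 39.2 and 37.5 (log2 fold change -0.27 ± 0.10, adjusted p = 0.526). Its partner Fads1, the delta-5 desaturase, was at 10.2 and 8.30 against 8.59 and 11.2. Scd2, a stearoyl-CoA desaturase with close relatives in the genome, was the most abundant of the 8 at 169 and 113 against 134 and 102 (log2 fold change -0.24, limma adjusted p = 0.797). Both overlapped between groups. In all, 5 of the 8 genes were lower and 1 higher in PCN without overlap, and 3 were lower and 1 higher at an unadjusted p under 0.05. Of all genes, 19.1% were lower and 21.1% higher without overlap, and 4.11% and 5.25% at that p. Without transcripts listed at 0 in any library, the counts were 3 lower and 1 higher without overlap, and 1 and 1 at that p. The shares of all genes above are from sums of all transcripts. In the reading without those transcripts, 455 of all genes were lower and 669 higher at that p.

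Adipocytes also express the fatty acid enzymes. The 8 adipocyte markers were all highest in vehicle replicate 2. The 8 fatty acid enzymes were all higher in vehicle replicate 1 than in vehicle replicate 2, but Acly only just, at 38.47 and 38.40 FPKM. The median ratio factors of these libraries, 1.01 and 0.980, differ by more than that, and the values here were not rescaled. The enzymes summed to 335 and 261 FPKM with vehicle and 278 and 240.5 in PCN. Without vehicle replicate 2 the log2 fold changes were -0.61 for Acly, -0.53 for Fasn and 0.48 for Elovl6. With the smooth muscle marker score as a covariate, where 1 residual degree of freedom was left, the log2 fold changes of Acly, Fasn and Elovl6 were -0.70, -0.64 and 0.35. With the adipocyte score in its place, a choice made after seeing the data, they were -0.67, -0.54 and 0.48. The part of cell makeup in these values was not tested.

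The RefSeq promoters of Acly and Elovl6 are shown because these genes had the smallest p-values and opposite directions. Capitals mark CCAAT and GGGCGG boxes on either strand, of which Acly held 1 and 4, and Elovl6 0 and 0. Neither window held CACGTG or the SRE letters searched.
Acly, chr11:100527951-100528250, minus strand: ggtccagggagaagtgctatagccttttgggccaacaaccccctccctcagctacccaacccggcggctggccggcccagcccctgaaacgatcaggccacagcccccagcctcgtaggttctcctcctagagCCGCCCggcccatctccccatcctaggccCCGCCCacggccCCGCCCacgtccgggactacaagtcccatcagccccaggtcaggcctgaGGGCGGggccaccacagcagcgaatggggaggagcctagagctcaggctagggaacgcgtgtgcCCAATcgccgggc
Elovl6, chr3:129532136-129532435, plus strand: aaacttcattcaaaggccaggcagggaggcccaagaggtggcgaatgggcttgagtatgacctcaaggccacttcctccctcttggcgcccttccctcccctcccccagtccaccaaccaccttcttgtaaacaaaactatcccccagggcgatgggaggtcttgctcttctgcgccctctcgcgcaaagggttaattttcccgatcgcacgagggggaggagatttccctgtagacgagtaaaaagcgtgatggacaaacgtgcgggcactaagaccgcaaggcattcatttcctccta

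The regulators split into a steady transcription factor and 2 uneven partners. Srebf2 was at 46.9 and 43.5 FPKM with vehicle and at 50.9 and 47.3 in PCN, higher in both PCN libraries but by less than 10% (mean ratio 1.09, log2 fold change 0.12 ± 0.09, adjusted p = 0.731). Scap was at 19.6 and 14.5 in vehicle and 9.61 and 11.2 in PCN, without overlap. Its log2 fold change of -0.66 ± 0.18 was the lowest of the 32 genes (unadjusted p = 0.0138, limma adjusted p = 0.349). Insig1, a classic SREBP target whose product closes the feedback loop, was at 65.0 and 53.7 against 60.5 and 45.99, with overlap (log2 fold change -0.16). Insig2, the form that does not depend on SREBP, was at 13.2 and 21.5 against 8.63 and 13.2. It had a log2 fold change of -0.61 ± 0.30, but vehicle replicate 1 was just below PCN replicate 2, and without vehicle replicate 2 the change was -0.28. An Insig2 transcript at 5.34 in vehicle replicate 2 was listed at 0 in every other library. Without that transcript the change was -0.42, with vehicle at 13.2 and 16.2.

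The sterol-responsive genes outside the enzyme pathways did not pass the test. Stard4, a carrier of cholesterol between membranes, was at 89.0 and 89.4 FPKM with vehicle and at 94.6 and 84.0 in PCN (log2 fold change -0.0011, 95% interval -0.22 to 0.22). Tmem97, also known as the sigma-2 receptor, was at 42.4 and 28.9 against 36.0 and 33.7, and Rdh11, a retinol dehydrogenase, at 14.7 and 13.6 against 14.8 and 12.1. The spread between both vehicle libraries of Tmem97, 0.54 on the log2 scale, was far larger than its group difference of -0.0087 (95% interval -0.50 to 0.48). Adjusted for the smooth muscle markers, the group difference of Tmem97 was -0.66 and that of Rdh11 -0.29.

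The lower sums of Scap, Fasn, Acaca and, in part, Acly and Insig2 rested on transcripts listed at 0 in PCN libraries. The 32 genes were summed from 78 transcripts, and 23 genes had more than 1. Scap had 3, all nearest to the reference transcript ENSMUST00000098350.9 (chromosome 9, plus strand, 23 exons). Its main transcript was at 11.5 and 12.3 FPKM with vehicle and 9.61 and 11.2 in PCN. The others were at 4.91 and 2.23, and at 3.19 and 0, in vehicle, and both were listed at 0 in both PCN libraries. Fasn had 2 transcripts above 0 in every library, which together were at 14.6 and 12.6 in vehicle and 14.1 and 12.3 in PCN. Another was at 6.23 in vehicle replicate 1, 1.82 in PCN replicate 2 and 0 elsewhere, and the last at 5.84 in vehicle replicate 2 alone. The main transcript of Acaca was at 3.05 and 4.11 in vehicle and 3.54 and 3.18 in PCN, and its other transcript at 2.27 in vehicle replicate 1 alone. For Acly the transcripts above 0 throughout summed to 31.8 and 26.6 against 25.6 and 22.8, without overlap. A further Acly transcript, at 3.30 and 11.8 in vehicle, was at 0 in both PCN libraries.

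Without transcripts listed at 0 in any library, the log2 fold changes were -0.18 for Scap, -0.045 for Fasn, -0.062 for Acaca and -0.26 for Acly. The transcripts left out of Scap and Acaca were at 0 in both PCN libraries, and those of Fasn and Acly were mostly in vehicle. Leaving them out could therefore only raise these values, and it does not show whether the genes were lower. The unadjusted limma p was then 0.0751 for Acly and 0.190 for Scap, and 2 of the 32 genes were at p under 0.05 in place of 5. Over all genes 669 were higher and 455 lower at that p, in place of 583 and 456. The value of Elovl6 was then 0.69 ± 0.10 (unadjusted p = 0.000467, limma adjusted p = 0.0714), with sums of 27.2 and 23.8 in vehicle and 40.7 and 42.3 in PCN. The Elovl6 transcript left out was at 2.24 and 1.06 in vehicle and at 0 in both PCN libraries. Leaving it out could only raise the fold change, so the smaller p adds no support. Its main transcript, nearest to ENSMUST00000071402.6 (chromosome 3, 129532386 to 129638495, plus strand, 5 exons), was at 23.0 and 17.6 in vehicle and 35.0 and 33.2 in PCN. The median over the 8 fatty acid enzymes was -0.15 in this reading. Fads2 and Acss2 had no such transcript, but leaving out 1 library put them between -0.37 and -0.16 and between -0.60 and -0.17. Of the 13 transcripts of the 32 genes at 0 in a library, 8 were at 0 in both PCN libraries and above 0 in a vehicle library, and 0 the other way round. The 8 are 10.3% of the 78 transcripts, where 3.73% of all 21160 transcripts had that pattern and 2.10% the opposite one. An exact 0 can be a failed estimate, and 11 of the 13 had, in some library, exactly the printed value of a transcript from a different gene, against 5 of the other 65, so these transcripts are uncertain.

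**Figure D3:**
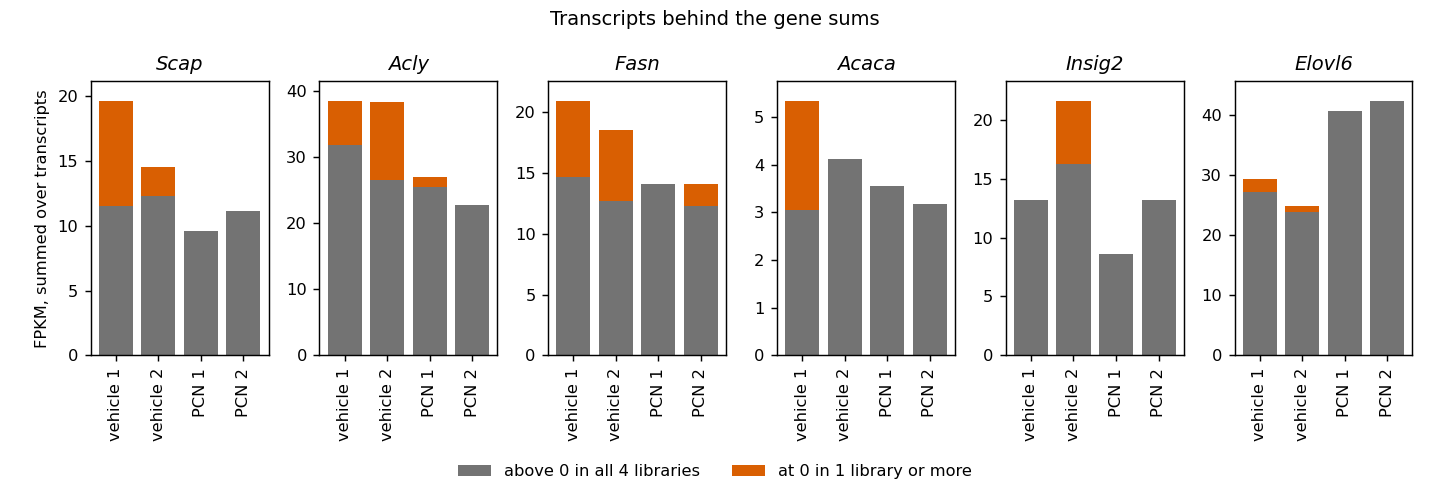
FPKM of 6 genes in each library, stacked as the sum of transcripts above 0 in all 4 libraries (grey) and of transcripts listed at 0 in 1 library or more (orange), with a scale of its own for each gene starting at 0. The grey part of Scap runs from 9.61 to 12.3 and that of Fasn from 12.3 to 14.6 across both groups, whereas the grey part of Elovl6 is higher in both PCN libraries.

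Most sterol enzymes were higher in replicate 1 than in replicate 2 of both groups. Replicate 1 was above replicate 2 in 15 of 17 sterol enzymes in vehicle, in 15 of 17 in PCN and in 14 of 17 in both, against 57.5%, 52.7% and 31.3% of all genes. The median log2 difference, replicate 1 minus replicate 2, was 0.19 in vehicle and 0.17 in PCN, where it was 0.041 and 0.016 over all genes. After libraries were rescaled by their median ratio the sterol enzyme values were 0.14 and 0.15, with 13 of 17 in the same order in both groups. The 17 genes summed to 870.3 and 758 FPKM with vehicle and 844 and 732 in PCN. Without rescaling, vehicle replicate 1 was the highest library for 12 of the 17, against 2921 of all 11103 genes. PCN replicate 2 was the lowest for 9 of the 17, against 2908 of all genes. Insig1, Stard4, Tmem97 and Rdh11 followed the same order in PCN, and all but Stard4 in vehicle as well. Insig2 ran the other way in both groups, by -0.67 in vehicle and -0.56 in PCN. The replicate numbers only name the libraries, genes of 1 library are not independent, and the epithelium markers were also lower in replicate 2, at 0.951 times replicate 1 in vehicle. The part of cell makeup in this order was not tested.

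**Figure D4:**
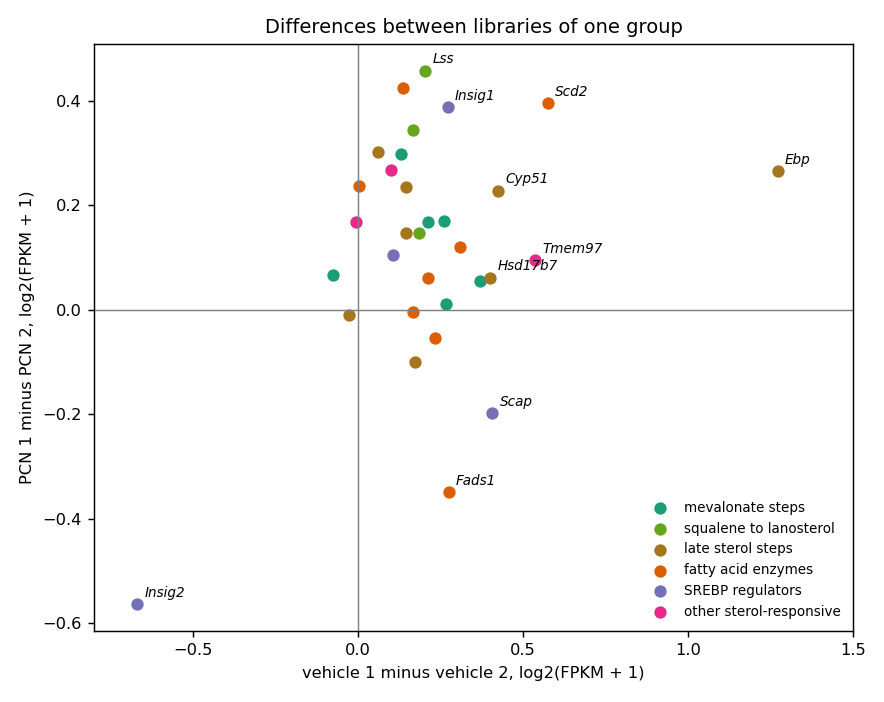
Difference between the libraries of a group for each of the 32 genes on the log2(FPKM + 1) scale, vehicle on the horizontal and PCN on the vertical axis, coloured by role. Most sterol enzymes lie in the upper right part, where replicate 1 is higher in both groups, and Insig2 lies far to the lower left, at -0.67 and -0.56, with Tm7sf2 also just below 0 on both axes.

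Other genes of the same pathways came from a list of 32, of which 28 were tested, and their median log2 fold change was -0.025. Of the 28 genes 0 were called, and at an unadjusted p under 0.05 1 was higher and 1 lower (5.25% and 4.11% of all genes). Both are fatty acid elongases and were singled out after their values were seen. Elovl1, which makes very long chains, was at 126 and 113 in vehicle and 148 and 151 in PCN (log2 fold change 0.33 ± 0.08, adjusted p = 0.294), and Elovl5, which extends polyunsaturated chains, at 18.5 and 18.0 against 11.5 and 14.7 (-0.46 ± 0.14, adjusted p = 0.424). Srebf1, which encodes SREBP1, was at 13.7 and 9.09 against 10.98 and 16.2, with overlap. Without overlap 8 of the 28 were lower (28.6%, against 19.1% of all genes) and 5 higher (17.9%, against 21.1%).

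**Figure D5:**
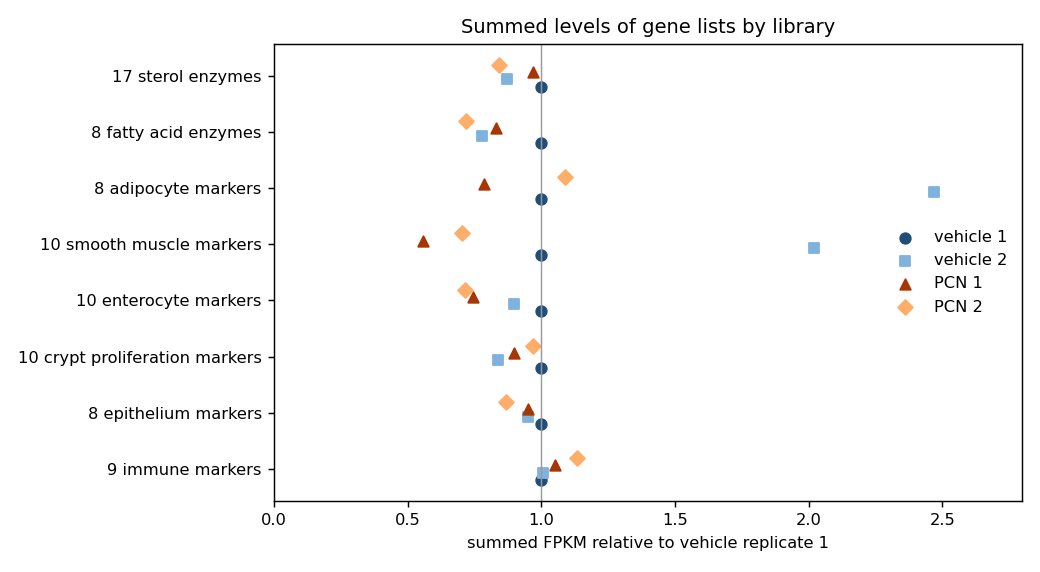
Summed FPKM of each gene list in the 4 libraries, relative to vehicle replicate 1, which is at 1. The sterol and fatty acid enzymes are below 1 in the other 3 libraries, while the adipocyte and smooth muscle markers of vehicle replicate 2 are at 2.47 and 2.02.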

How the data were processed

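The members and gene lists were chosen with earlier results of these data known. The authors deposited 1 table of FPKM per transcript for the 4 ileum libraries (build mm10 per the submitters' notes). The aligner and quantification program are not given in the sources used here. Supplementary methods of the study describe colon libraries with other processing and were not applied to this table. FPKM of the 21160 transcripts with a gene symbol were summed per symbol. PCN was compared with vehicle for genes averaging 1 FPKM or more, using limma 3.58.1 (R 4.3.3, trend on, no replicate block) and log2(FPKM + 1). Fold changes stay on that scale and are therefore too small for genes of low level. P-values were adjusted over 11103 genes by the Benjamini-Hochberg method, with 2 residual degrees of freedom among libraries. The fit was also run on simulated data, with planted changes larger than that of any member. It therefore does not show what could be called at the size of the members' changes. Library values and a fold change, not always with an adjusted p, are given for these members: those without overlap and a log2 fold change of at least 0.5 in size, Srebf2, Scap and the 2 most abundant of each role. Positions are from GENCODE M21 (GRCm38). For 9 of 32 members the table's locus ran over 10 kb beyond the annotated gene, so reads of neighbouring or overlapping genes could not be told apart. Alternatives were other pseudocounts, filters, scalings, single transcripts, marker covariates and leaving out each library. Fits with adipocyte markers as a covariate, and sums without transcripts at 0, were chosen after seeing the data. Some genes of the wider pathway list are not reported here by name.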

Additional observations from a re-analysis of the deposited data

How the results depend on the processing

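No member was called under any alternative tried, and of the values of single members recomputed 376 kept their direction and 40 reversed. These leave out 4 settings that cannot move a fold change (no filter, a mean of at least 5 FPKM, the replicate block and no trend). With limma, the 9 genes higher and 6 lower over all genes became 5 higher with a pseudocount of 0.1, 34 and 22 with a mean of at least 5 FPKM, 1 and 0 with transcripts one by one, 2 and 0 without a trend, 0 and 0 with the smooth muscle score, 12 and 1 with the adipocyte score and 35 and 17 without transcripts at 0. Leaving out 1 library gave 0 to 8 higher and 0 to 12 lower, 8 and 12 without vehicle replicate 1. The median of the members was -0.36 with the smooth muscle score, which separated the groups, and -0.25 with the adipocyte score. The smooth muscle score turned Fdft1 to -0.22, Msmo1 to -0.23, Hsd17b7 to -0.36, Fads1 to -0.099, Srebf2 to -0.045 and Insig2 to 0.37. The adipocyte score turned Fdft1 to -0.072, Msmo1 to -0.11 and Hsd17b7 to -0.12. Quantile normalization turned Msmo1 to -0.015. Transcripts one by one turned Idi1 to 0.0043, Sc5d to 0.046, Fasn to 0.015 and Stard4 to 0.0055. Leaving out 1 library reversed genes with these ranges: Acat2 -0.30 to 0.069, Hmgcs1 -0.19 to 0.11, Idi1 -0.14 to 0.13, Fdps -0.18 to 0.078, Sqle -0.12 to 0.067, Cyp51 -0.24 to 0.18, Ebp -1.01 to 0.26, Scd2 -0.52 to 0.051, Tmem97 -0.28 to 0.26, Msmo1 -0.092 to 0.14, Hsd17b7 -0.077 to 0.32, Fads1 -0.092 to 0.26, Stard4 -0.086 to 0.083, Fdft1 -0.066 to 0.28, Lss -0.42 to 0.041, Sc5d -0.30 to 0.0038, Insig1 -0.36 to 0.032 and Rdh11 -0.21 to 0.060. The cause was not tested.

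With the replicate number as a block, 39 genes were higher and 21 lower, 0 of them members. At an unadjusted limma p under 0.05 were 7 of the 32 members, and 642 higher and 540 lower of all 11103 genes. Deviations of same-numbered libraries correlated at 0.0341 across 11103 genes and at 0.350 across the 32 members, and with 2 pairs the numbers do not establish a pairing. Read depth was unknown, and 2 libraries a group limit what could be called.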
